A study of Mus musculus with 11 samples.

Results

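The genes described are 7 genes of hepatic retinoid handling, *Rbp4*, *Dhrs3*, *Rdh10*, *Rdh16*, *Aldh1a1*, *Aldh1a7* and *Cyp26a1*, taken by symbol from a table of read counts that holds 46603 genes. They were measured by bulk mRNA sequencing of liver from 11 male mice of the leptin-deficient *ob/ob* strain, with 1 library per mouse. From 5 to 6 weeks of age all were fed a high-fat diet with added fructose and cholesterol, known as the AMLN diet. After 15 weeks of diet, 4 mice received INT-767, which is an agonist of the bile acid receptors FXR and TGR5, at 10 mg/kg once daily for 8 weeks, and 7 received the vehicle, 0.5% carboxymethyl cellulose. The same diet was kept up during treatment. The comparison asks whether the transcripts for retinoid transport, synthesis and breakdown differ between the treated and the control livers. Libraries held 7966963 to 15295230 counts in the 7 vehicle mice (median 10878327) and 7381211 to 16022459 in the 4 treated mice (median 12034846.5).

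The liver takes up dietary vitamin A as retinyl ester, passes retinol between hepatocytes and stellate cells, and stores most of it as ester in stellate cell droplets. Retinol leaves the liver bound to RBP4 in a complex with transthyretin. Inside cells, dehydrogenases such as RDH10 oxidize retinol to retinal, DHRS3 reduces retinal back to retinol, and enzymes such as ALDH1A1 convert retinal to retinoic acid. CYP26 enzymes hydroxylate retinoic acid for removal, and retinoic acid acts through the RAR and RXR receptors, which bind paired copies of a short half-site in DNA.

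The promoter of *Cyp26a1* is shown because it was the only one of the genes whose searched window held a classical retinoic acid response element. The motif, DR5, is a pair of half-sites in direct repeat with 5 bases between them, each half-site being AGGTCA or one of its variants (AGTTCA, the variant GGGTCA or the variant GGTTCA) on either strand. In RefSeq windows of GRCm38.p6 from 250 bases before to 50 bases after the start site, DR5 was found in 32 of 32851 windows (0.0974%). Windows were available for 6 of the 7 genes (10 windows), and *Rdh10* was not matched. Among all 55 genes of the retinoid lists used here, 43 had a window and *Rarb*, a retinoic acid receptor gene, was the only other one with DR5. The 100 bases before each start site follow, 5′ to 3′ on the strand of the gene, with DR5 in capitals.
Cyp26a1, chr19:37697708-37697807, plus strand: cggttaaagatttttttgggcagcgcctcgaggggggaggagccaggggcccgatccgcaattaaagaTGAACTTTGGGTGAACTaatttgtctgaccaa
Rarb, chr14:16575477-16575576, minus strand: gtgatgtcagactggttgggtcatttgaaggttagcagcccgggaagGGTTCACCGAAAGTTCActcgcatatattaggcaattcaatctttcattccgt
The *Cyp26a1* element reads as the repeat on the opposite strand and begins 32 bases before the start site, and that of *Rarb* begins 53 bases before it. A match describes the letters in the window and not whether a receptor binds there. The other motifs searched, built from the same half-sites, were DR2 (direct repeat with 2 bases between), DR1 (1 base between) and IR1 (inverted repeat with 1 base between, the arrangement known for FXR). They were in 0.268%, 0.222% and 0.0365% of all windows, respectively, and in 0 of the 6 genes.

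The libraries were not alike in technical respects that bear on the values. Across genes, the deviation of a library from the mean of all libraries ran against transcript length in vehicle mice 1 and 7 and INT-767 mice 2 and 4 (Spearman's rho −0.18, −0.23, −0.29 and −0.31), and with it in the 5 other vehicle mice (0.11 to 0.30) and INT-767 mice 1 and 3 (0.15 and 0.09). No label explains this split, so the values of called genes are also given within each set of libraries, a division chosen after the data were seen. A second trend, on GC content, had a wider range over the libraries and differed in sign between most vehicle and all treated mice. Its rho was negative in all 4 INT-767-treated mice (−0.06, −0.26, −0.16 and −0.24 in mice 1 to 4) and in vehicle mice 1 and 7 (−0.42 and −0.12), and positive in vehicle mice 2 to 6 (0.02 to 0.44). Across genes, the log2 fold change had a rho of −0.30 with GC content and −0.24 with length. With an offset that removed both trends from each library, also chosen after the data were seen, *Rbp4*, *Rdh10* and *Cyp26a1* had log2 fold changes of 0.57, 0.97 and 1.63 (edgeR adjusted p = 0.0370, 0.00617 and 0.0301).

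INT-767-treated livers had more *Rbp4*, *Rdh10* and *Cyp26a1* transcript, that is, a retinol carrier, a retinol dehydrogenase and a retinoic acid hydroxylase. For *Cyp26a1* the groups overlapped, and its edgeR adjusted p was 0.0418 with all mice and 0.224 without INT-767 mouse 2. *Dhrs3*, *Rdh16*, *Aldh1a1* and *Aldh1a7* did not pass the test. Of the 7 genes, 3 were called higher and 0 lower by edgeR's quasi-likelihood test with Benjamini-Hochberg adjustment at 0.05, where 5.04% of the 13880 genes tested were called higher and 4.68% lower. For 2 of the 7, *Rbp4* and *Rdh10*, the lowest treated value exceeded the highest vehicle value, which held for 3.87% of all genes tested. With library size as the only scaling *Rdh10* still separated the groups (exact Mann-Whitney p = 0.00606), but *Rbp4* did not (0.0121). The median log2 fold change of the 7 genes was 0.28, beside −0.01 over all genes tested. In bulk liver, fewer cells of a type and less RNA per cell cannot be told apart.

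**Figure D1:**
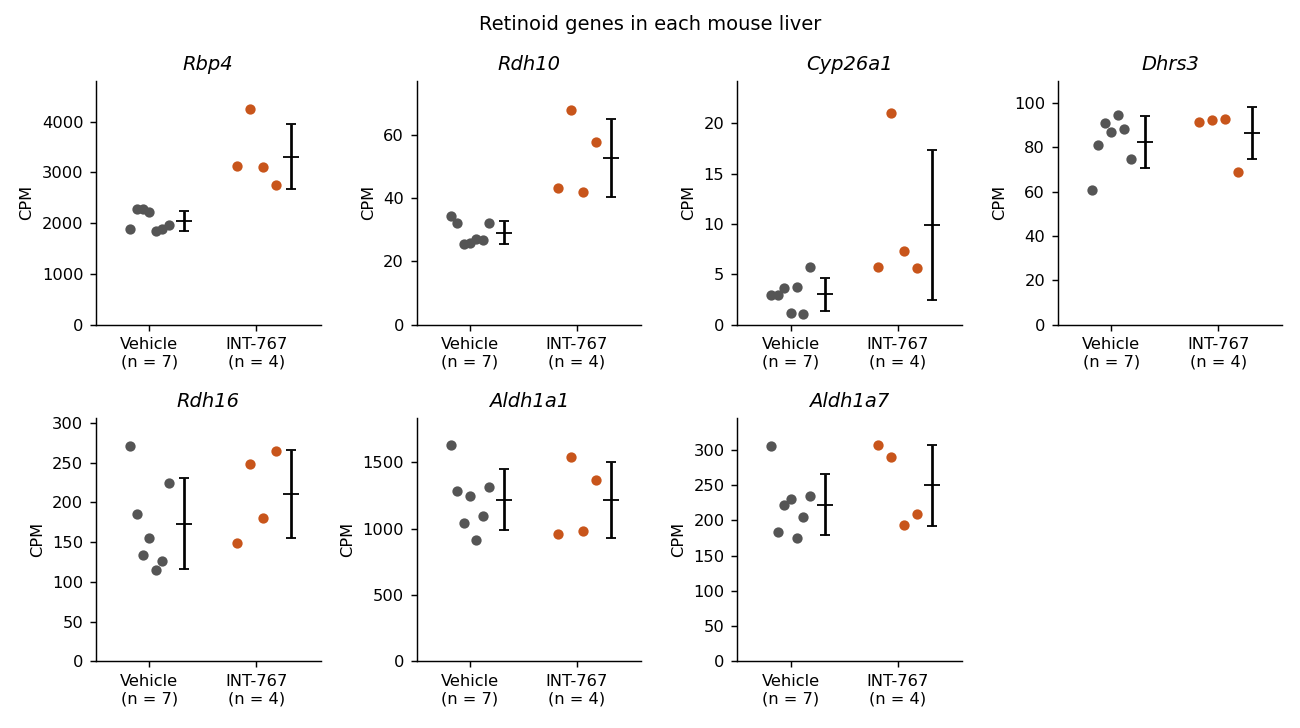
Level in CPM (counts scaled by library size and TMM factor, linear axis from 0) of the 7 genes in each liver, with 1 point per mouse in order of its number and the mean ± SD beside each group. *Rbp4* and *Rdh10* separate the groups, *Cyp26a1* has 1 INT-767-treated mouse at 20.98 CPM, and the 4 other genes overlap.

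*Rbp4* (ENSMUSG00000024990, chr19:38116629-38125281, minus strand, GRCm38) encodes the plasma carrier of retinol. Its level in CPM, counts scaled by library size and edgeR's TMM factor, ranged from 1846 to 2283 with vehicle (median 1961). In INT-767 mice 1 to 4 it was 3123, 4244, 3110 and 2759 CPM. Under this scaling the lowest treated mouse was above the highest vehicle mouse. With library size as the only scaling the groups overlapped (exact Mann-Whitney p = 0.0121). The mean rose from 2049 ± 197 CPM (SD, n = 7) to 3309 ± 646 CPM (SD, n = 4), a log2 fold change of 0.69 (SE 0.16, 95% confidence interval 0.35 to 1.03, edgeR adjusted p = 0.0201). By the exact Mann-Whitney test (two-sided) p was 0.00606, the smallest that 7 against 4 mice allow, and 0.0807 after adjustment over all genes. Without INT-767 mouse 2, the highest, the log2 fold change was 0.54 and the edgeR adjusted p 0.104. Within the 2 sets of libraries the log2 fold change was 0.58 (5 vehicle and 2 treated mice, positive length trend, edgeR adjusted p = 0.0461) and 0.83 (2 and 2, negative trend, 0.186).

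*Ttr*, which encodes transthyretin, the partner of RBP4 in plasma, had 4504 ± 718 CPM with vehicle and 3601 ± 587 CPM with INT-767 (log2 fold change −0.32, edgeR adjusted p = 0.208). The ratio of *Rbp4* to *Ttr* counts within a liver does not depend on how libraries are scaled. It ranged from 0.417 to 0.544 with vehicle (median 0.452) and was 0.907, 1.22, 0.702 and 0.907 in INT-767 mice 1 to 4. The ratio was higher in each treated mouse than in any vehicle mouse.

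*Rdh10* (ENSMUSG00000025921, chr1:16105774-16133734, plus strand) encodes a retinol dehydrogenase that makes retinal for retinoic acid synthesis. It ranged from 25.5 to 34.4 CPM with vehicle (median 27.1) and was 43.3, 67.9, 42.0 and 57.7 CPM in INT-767 mice 1 to 4. The groups did not overlap. The log2 fold change was 0.85 (SE 0.16, 95% confidence interval 0.51 to 1.20, edgeR adjusted p = 0.00881), and the exact Mann-Whitney p was 0.00606. The call was kept when each mouse was left out in turn, with adjusted p between 0.00719 and 0.0461. Within the 2 sets of libraries the log2 fold change was 0.64 with the positive trend and 0.88 with the negative (edgeR adjusted p = 0.0132 and 0.0728).

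*Dhrs3* (ENSMUSG00000066026, chr4:144892827-144928209, plus strand), whose product reduces retinal to retinol, ranged from 60.8 to 94.4 CPM with vehicle (median 87.0) and was 91.5, 92.3, 92.6 and 68.7 CPM with INT-767. Its log2 fold change was 0.06 (95% confidence interval −0.26 to 0.39, edgeR adjusted p = 0.777). With library size as the only scaling it was −0.15, but there the median of all genes moved from −0.01 to −0.22, and relative to that median *Dhrs3* stood at 0.07 under both scalings. The *Rdh10* to *Dhrs3* ratio within a liver was 0.280 to 0.567 with vehicle (median 0.302) and 0.454 to 0.840 with INT-767 (median 0.605). The groups overlapped in this ratio.

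*Rdh16* (ENSMUSG00000069456, chr10:127801152-127846565, plus strand) encodes a liver dehydrogenase of retinol and steroids. It ranged from 115 to 271 CPM with vehicle (median 156) and was 148, 249, 180 and 264 CPM with INT-767, with a log2 fold change of 0.28 (95% confidence interval −0.27 to 0.83, edgeR adjusted p = 0.432). Of the 75-base windows of its transcripts, 9.59% also occur in another gene, most often in the pseudogene *Rdh18-ps*, so its counts carry some uncertainty.

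*Aldh1a1* (ENSMUSG00000053279, chr19:20492715-20643465, plus strand), the main retinal dehydrogenase transcript here, ranged from 916 to 1633 CPM with vehicle (median 1243) and was 960, 1539, 984 and 1367 CPM with INT-767. Its log2 fold change was −0.01 (95% confidence interval −0.43 to 0.41, edgeR adjusted p = 0.978). *Aldh1a7* (ENSMUSG00000024747, chr19:20692953-20727562, minus strand), a close relative whose gene lies 49487 bases away, ranged from 175 to 306 CPM (median 221) and was 307, 289, 193 and 208 CPM with INT-767. Its log2 fold change was 0.17 (95% confidence interval −0.24 to 0.57, edgeR adjusted p = 0.527), and relative to the median of all genes it was 0.18 both here and with library size as the only scaling. Few windows of 75 bases also occur in another gene, 1.01% of those of *Aldh1a1* (most often in *Aldh1a7*) and 2.51% of those of *Aldh1a7* (most often in *Aldh1a1*). *Rdh16* and *Aldh1a1* were highest within their groups in vehicle mice 1 and 7 and INT-767 mice 2 and 4, the libraries with the negative length trend, and so was *Rdh10* above. The part of that trend in their spread was not tested.

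*Cyp26a1* (ENSMUSG00000024987, chr19:37697798-37701536, plus strand) encodes the retinoic acid hydroxylase whose promoter is shown above. It was the least abundant of the 7 genes, between 9 and 152 counts per mouse. Its level in vehicle mice 1 to 7 was 2.91, 2.93, 3.63, 1.12, 3.70, 1.05 and 5.71 CPM. In INT-767 mice 1 to 4 it was 5.71, 20.98, 7.31 and 5.61 CPM. The groups met at the upper end of the vehicle mice, and INT-767 mouse 2 stood far above the rest. The mean was 3.01 ± 1.61 CPM (SD, n = 7) with vehicle and 9.90 ± 7.43 CPM (SD, n = 4) with INT-767. The log2 fold change was 1.67 (SE 0.47, 95% confidence interval 0.67 to 2.68, edgeR adjusted p = 0.0418), with an exact Mann-Whitney p of 0.0242. Without INT-767 mouse 2 the log2 fold change was 1.00, with an edgeR adjusted p of 0.224. The call was kept in 5 of 11 fits that each left out 1 mouse and was lost when any of vehicle mice 2 to 6 or INT-767 mouse 2 was the one left out. Within the 2 sets of libraries the log2 fold change was 1.36 and 1.50, and the gene was called in neither (edgeR adjusted p = 0.0569 and 0.172). *Cyp26b1*, the other hydroxylase tested, had 3.53 ± 1.51 CPM with vehicle and 3.47 ± 1.02 CPM with INT-767 (log2 fold change −0.05, edgeR adjusted p = 0.924), with a direction that differed between alternatives.

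**Figure D2:**
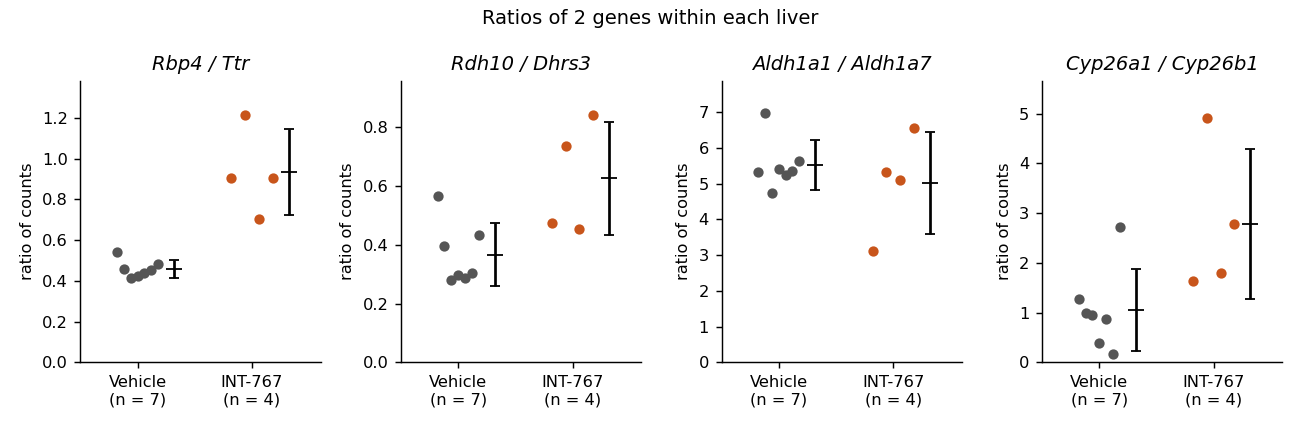
Ratio of the counts of 2 genes within each liver (linear axis from 0), with 1 point per mouse and the mean ± SD beside each group. The *Rbp4* to *Ttr* ratio of the 4 INT-767-treated mice starts at 0.702, above the highest vehicle mouse at 0.544, while the 3 other ratios overlap.

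Per kilobase of the longest transcript, mean vehicle levels in CPM per kilobase followed the order *Rbp4* (1765), *Aldh1a1* (517), *Aldh1a7* (107), *Rdh16* (52.7), *Dhrs3* (35.3), *Rdh10* (8.12) and *Cyp26a1* (1.68). *Rdh16* and *Dhrs3* changed places when the length of all exons together was used (27.8 and 28.2). The called genes were thus at both ends of this order, *Rbp4* first and *Rdh10* and *Cyp26a1* last.

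The wider retinoid lists held 55 genes, of which 53 were matched in the table and 42 passed the filter on low counts. Of these 42, 9 were called higher and 1 lower by edgeR, beside 5.04% and 4.68% of all genes tested. Leaving out the 7 genes above, 6 of 35 were higher and 1 lower, with a median log2 fold change of 0.08.

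Among the genes of transport and binding, 4 of 10 were tested, 2 were higher and 0 lower. Besides *Rbp4*, *Stra6l*, a membrane receptor for RBP4 known from liver, rose from 134 ± 23.0 to 202 ± 23.6 CPM (log2 fold change 0.60, edgeR adjusted p = 0.0327). *Fabp5*, for a fatty acid-binding protein that can carry retinoic acid, had a log2 fold change of −0.57 (edgeR adjusted p = 0.140).

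Of the 7 genes of retinyl ester storage and mobilisation, all were tested and 0 were called by edgeR. *Lrat*, for the enzyme that esterifies retinol in stellate cells, had 28.4 ± 5.50 CPM with vehicle and 29.5 ± 5.04 CPM with INT-767 (log2 fold change 0.05, 95% confidence interval −0.33 to 0.43). Relative to the median of all genes *Lrat* stood at 0.06 both here and with library size as the only scaling. The lipases *Lpl*, *Pnpla2* and *Lipa* had log2 fold changes of −1.01, −0.71 and 0.30 (edgeR adjusted p = 0.0591, 0.0880 and 0.312). *Lpl*, for lipoprotein lipase, ranged from 160 to 283 CPM with vehicle (median 177) and was 137, 37.7, 85.5 and 139 CPM with INT-767, all below the vehicle mice (exact Mann-Whitney p = 0.00606). It passed the threshold in 9 of 25 alternatives, and *Pnpla2* in 5.

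In the list of retinol oxidation and retinal reduction 14 of 20 genes were tested, and 3 were higher and 0 lower. *Rdh5*, a retinol dehydrogenase, rose beside *Rdh10* from 10.6 ± 1.39 to 17.3 ± 2.83 CPM (log2 fold change 0.71, edgeR adjusted p = 0.0176). *Dhrs9*, a dehydrogenase of retinol and steroids, rose from 5.03 ± 3.93 to 14.5 ± 5.20 CPM (log2 fold change 1.54, edgeR adjusted p = 0.0414), with vehicle mouse 1 at 13.7 CPM inside the range of the treated mice. *Rdh7* and the alcohol dehydrogenase gene *Adh1* had log2 fold changes of 0.36 and 0.08 (edgeR adjusted p = 0.104 and 0.814). In CPM *Rdh7* was higher in each treated mouse than in any vehicle mouse, but with library size as the only scaling its groups overlapped.

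All 5 genes listed under retinal dehydrogenases were tested, and 1 was higher. It was *Aldh8a1*, whose product acts on 9-cis-retinal and in tryptophan breakdown. It ranged from 180 to 347 CPM with vehicle (median 220) and was 312, 507, 310 and 661 CPM with INT-767 (log2 fold change 0.89, edgeR adjusted p = 0.0401), with overlapping groups. It too was highest within its groups in the 4 libraries with the negative length trend. *Aldh1a3* had 3.92 ± 0.676 CPM with vehicle and 2.34 ± 0.712 CPM with INT-767 (log2 fold change −0.71, edgeR adjusted p = 0.0731). Of the carotenoid-cleaving enzymes, *Bco2* rose from 11.8 ± 1.01 to 17.2 ± 3.35 CPM (log2 fold change 0.54, edgeR adjusted p = 0.0371). *Bco1* had 5.36 ± 2.07 CPM with vehicle and 1.96 ± 1.26 CPM with INT-767 (log2 fold change −1.40, edgeR adjusted p = 0.0501), and passed the threshold in 11 of 25 alternatives.

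**Figure D3:**
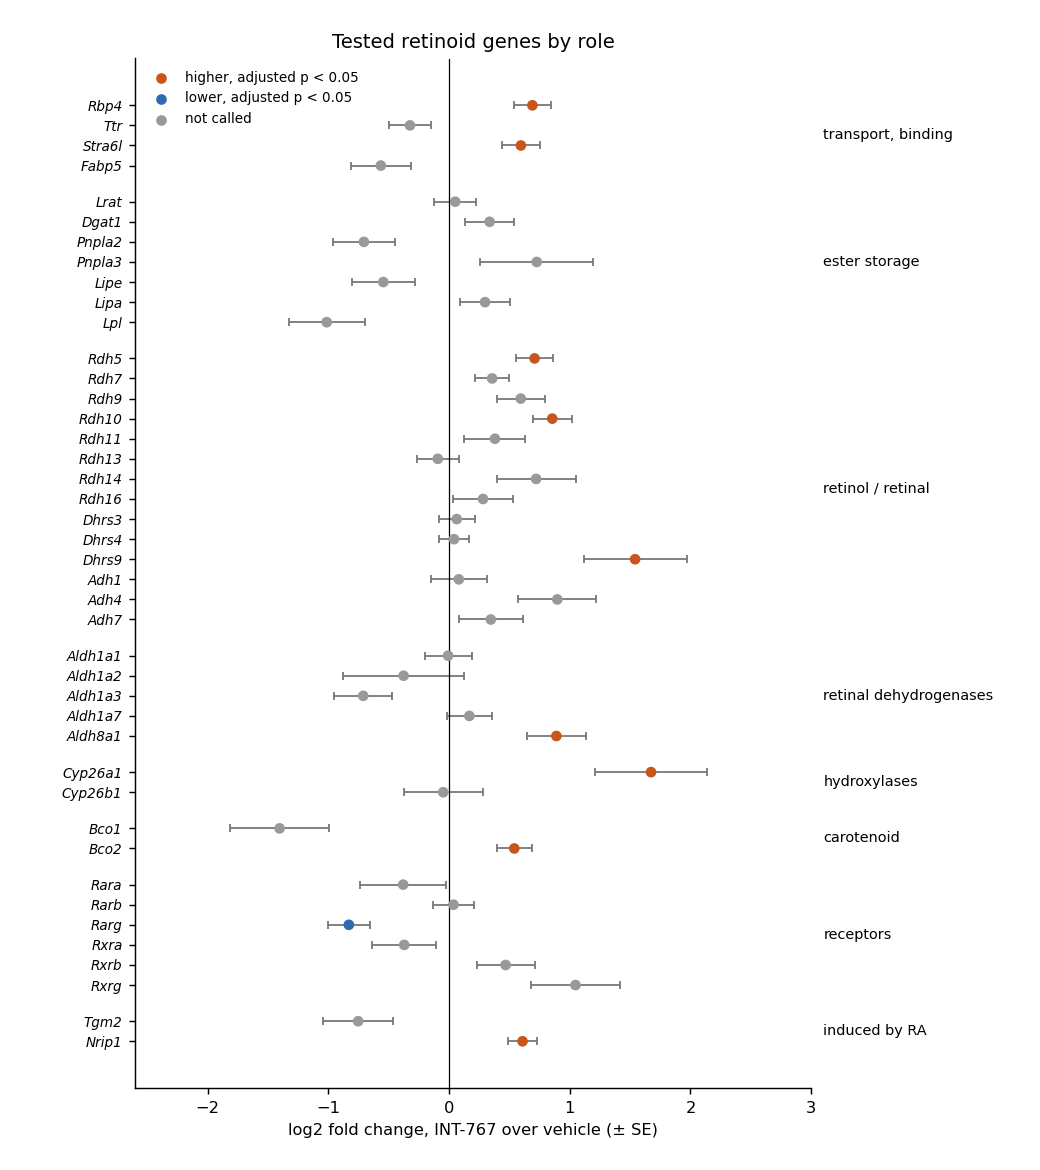
Log2 fold change of INT-767 over vehicle with its SE for the 42 tested retinoid genes, grouped by role, with genes called higher in orange, lower in blue and not called in grey. The called genes run from −0.83 (*Rarg*) to 1.67 (*Cyp26a1*), and the 7 genes of ester storage hold none.

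All 6 retinoid receptor genes were tested, 0 were higher and 1 lower. *Rarg* fell from 10.96 ± 1.89 to 6.15 ± 0.489 CPM (log2 fold change −0.83, edgeR adjusted p = 0.0139), with no overlap. *Rxra*, *Rxrb* and *Rara* had log2 fold changes of −0.37, 0.47 and −0.38 (edgeR adjusted p = 0.322, 0.187 and 0.454). In the list of genes known as induced by retinoic acid, 7 of 9 were tested, of which 2 were higher and 0 lower, with a median log2 fold change of 0.05. The higher ones were *Cyp26a1* and *Nrip1*, a nuclear receptor corepressor, which rose from 21.1 ± 1.35 to 32.3 ± 3.38 CPM (log2 fold change 0.61, edgeR adjusted p = 0.0115). *Tgm2*, a transglutaminase gene, had a log2 fold change of −0.75 (edgeR adjusted p = 0.104). *Rarb*, which carries the other DR5 shown above, had a log2 fold change of 0.04 (edgeR adjusted p = 0.888).

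The calls among these other retinoid genes differed in how often they were kept when 1 mouse was left out. Calls over all genes changed in these fits too. They fell from 1349 with all mice to 274 without treated mouse 2, but rose to 3276 without vehicle mouse 1. For *Rdh5*, *Rarg* and *Nrip1*, treated mouse 2 lay inside the range of the other treated mice (19.3, 6.21 and 34.0 CPM). Whether a lost call came from the gene's own values or from the adjustment over all genes was not tested. In the 11 fits that each left out 1 mouse, *Rdh5*, *Rarg* and *Nrip1* lost the call only without INT-767 mouse 2 (edgeR adjusted p = 0.0832, 0.0530 and 0.0592). *Stra6l* kept it in 5 of the 11 fits, *Aldh8a1* in 4, and *Dhrs9* and *Bco2* in 3 each, with edgeR adjusted p up to 0.129, 0.140, 0.148 and 0.179, respectively. The 4 genes lost the call without INT-767 mouse 2 and without vehicle mouse 4, 5 or 6, among others. Among all 25 alternatives, *Stra6l* lost it in 11, *Aldh8a1* in 13, *Dhrs9* in 14 and *Bco2* in 17. *Rdh5* and *Nrip1* lost it in 5 each, and *Rarg* in 4. Within the libraries of positive length trend, *Stra6l*, *Dhrs9*, *Aldh8a1*, *Rarg* and *Nrip1* were called (log2 fold changes 0.64, 2.18, 0.56, −0.85 and 0.52, edgeR adjusted p = 0.0374, 0.000637, 0.0485, 0.0329 and 0.0365), and *Rdh5* and *Bco2* were not (0.51 and 0.43, edgeR adjusted p = 0.0918 and 0.0888). Within those of negative trend 0 of the 7 were called, with log2 fold changes of 0.47, 0.58, 0.85, −0.75, 0.73, 0.85 and 0.70 in the same order.

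Among the markers of liver cell types, calls stood mainly in the periportal hepatocyte and myofibroblast lists, and 5 of the 9 lists had 0 called. The counts are to be read beside the 5.04% of all tested genes called higher and the 4.68% called lower. Hepatocyte markers, which check the tissue, summed to between 54405 and 72712 CPM with vehicle (median 57372). With INT-767 the sum was between 69933 and 104718 CPM (median 88664), and the groups overlapped. Of these 6 markers 0 were called, and 5 had a positive log2 fold change (median of the list 0.19). *Alb*, for albumin, was the most abundant, with 42969 ± 4295 CPM with vehicle and 63823 ± 19472 CPM with INT-767. Its log2 fold change was 0.57 (edgeR adjusted p = 0.0891), and it passed the threshold in 5 alternatives. Of the periportal hepatocyte markers, 5 of 6 were higher, and their sum ranged from 2025 to 2927 CPM with vehicle (median 2211) and from 2871 to 6127 CPM with INT-767 (median 4180). *Hal*, *Gls2* and *Ass1*, enzymes of amino acid and nitrogen metabolism, had log2 fold changes of 1.97, 1.28 and 1.31 (edgeR adjusted p = 0.00234, 0.00403 and 0.00450). *Ass1* was the most abundant by the mean over all mice. With vehicle *Pck1* stood above it (1120 and 818 CPM), and with INT-767 below it (1097 and 2026 CPM). Pericentral markers, with *Cyp2e1* the most abundant, had 0 of 7 called. Their sum ranged from 2961 to 8048 CPM with vehicle (median 5779) and from 2002 to 5400 CPM with INT-767 (median 2927), with overlapping groups, and *Cyp2e1* had 3944 ± 1757 CPM with vehicle and 1971 ± 1393 CPM with INT-767 (edgeR adjusted p = 0.162).

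Of the genes listed as quiescent stellate cell markers, 1 of 12 was lower, *Pdgfrb* (log2 fold change −1.31, edgeR adjusted p = 0.0302). The median log2 fold change of the 12 was −0.13, with 5 of them positive, and that of *Lrat*, also on the list, was 0.05. The sum of the 12 ranged from 287 to 601 CPM with vehicle (median 421) and from 325 to 489 CPM with INT-767 (median 376). *Reln* was the most abundant by the mean over all mice. With INT-767 its mean (69.0 CPM) was below those of *Rgs5* (91.4) and *Ecm1* (74.9). Of the myofibroblast markers, 3 of 8 were lower, *Col1a1*, *Col1a2* and *Loxl1* (log2 fold changes −2.96, −2.35 and −1.20, edgeR adjusted p = 0.0297, 0.0272 and 0.0291). Their sum ranged from 307 to 1187 CPM with vehicle (median 620) and from 70.8 to 288 CPM with INT-767 (median 189), and *Col3a1* was the most abundant. Of the macrophage markers, with *Cd5l* the most abundant, 1 of 6 was lower, *Cd68* (log2 fold change −1.16, edgeR adjusted p = 0.00943). Markers of sinusoidal endothelium (*Stab2* the most abundant by the mean over all mice), cholangiocytes (*Spp1*) and lymphocytes (*Cd79a*) had 0 called of 6, 5 and 4. With INT-767 *Fcgr2b* (38.6 CPM) was above *Stab2* (29.0), and with vehicle *Nkg7* (1.17 CPM) was above *Cd79a* (1.15). No tested marker was at 0 in any mouse. *Hal*, *Gls2*, *Ass1* and *Cd68* were called whichever mouse was left out, whereas *Pdgfrb*, *Col1a1*, *Col1a2* and *Loxl1* lost the call without INT-767 mouse 2 or 4, among others. The log2 fold changes of these 8 markers had the same sign within both sets of libraries, where those of positive length trend called all but *Loxl1* and *Col1a1* (edgeR adjusted p = 0.0951 and 0.0658), and those of negative trend called *Hal* and *Loxl1* (edgeR adjusted p = 0.0287 and 0.0403). The part of these cell types in the differences of *Rbp4* and the other retinoid genes was not tested.

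**Figure D4:**
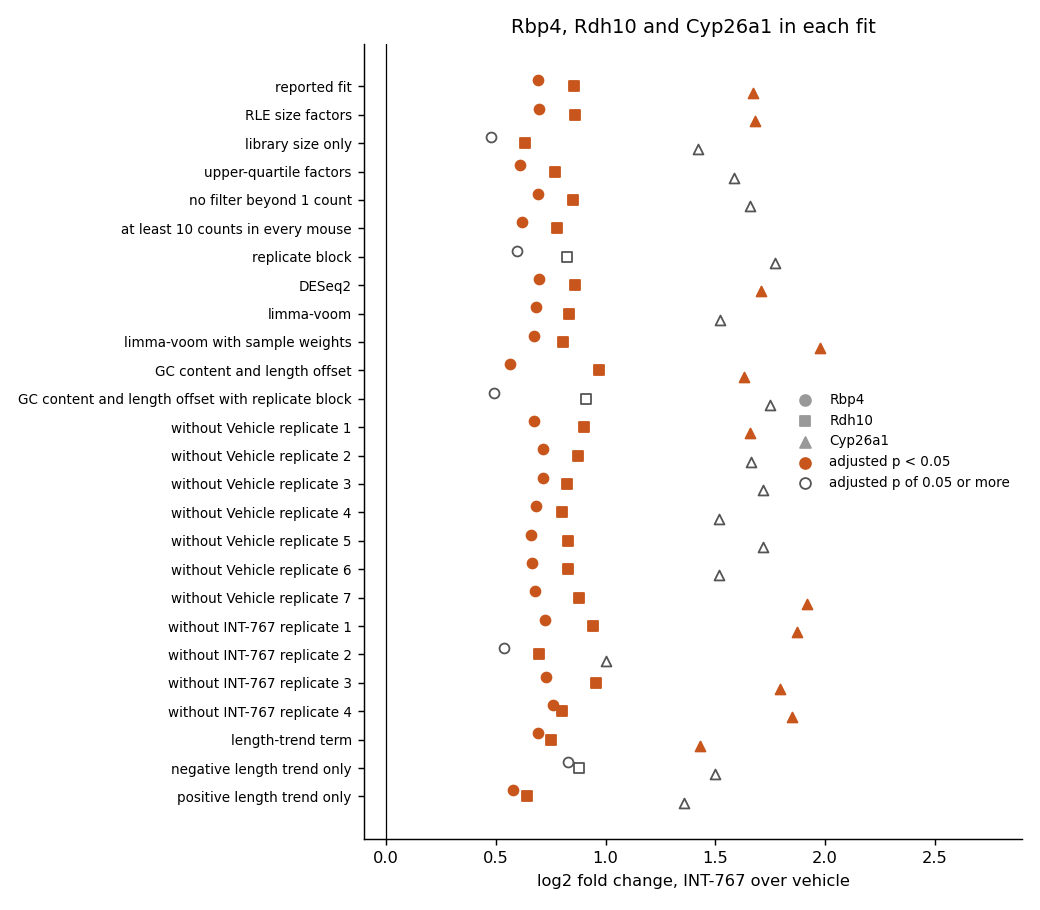
Log2 fold change of *Rbp4* (circles), *Rdh10* (squares) and *Cyp26a1* (triangles) under the reported fit and each alternative, filled where the adjusted p is under 0.05. Every value lies above 0. *Cyp26a1* is at 1.00 without INT-767 mouse 2, and none of the 3 genes is filled under the replicate block.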

How the data were processed

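Liver mRNA of 11 mice, 7 vehicle and 4 INT-767, was analysed, with groups from the sample labels. The authors made stranded libraries, sequenced them for 75 cycles and aligned reads with STAR to GRCm38. The submitters' processing notes name version 2.4.0, which differs from the study's methods. They deposited raw counts of reads per gene. How reads were counted, with which strand setting, and in which batches is not given in the sources used here. None of the 7 genes overlaps an exon on the opposite strand.

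The counts were scaled by TMM in edgeR 4.0.16 (R 4.3.3), filtered by filterByExpr (minimum count 10, minimum total 15), leaving 13880 genes, and tested with glmQLFit (robust) and glmQLFTest. Adjusted p are Benjamini-Hochberg over all tested genes. SE came from the fold change and F, and 95% intervals from the t distribution. CPM are counts scaled by library size and TMM factor. Exact two-sided Mann-Whitney tests enumerated 330 assignments. Without 1 INT-767-treated mouse the smallest possible p is 0.0167. The median chi-square per gene of the closest pair of libraries was 1.03, where 1 library drawn repeatedly gives 0.455, so all were kept as separate samples.

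The 7 genes and all lists were chosen with earlier results of these data known. Genes named were the 7, all called genes of each retinoid list and up to 3 others of highest mean CPM, from each marker list the most abundant gene and up to 3 called, and the 2 genes most like each of the 7. Some genes this rule chose are not reported here and were left out of the lists and their counts. *Rbp5*, *Rdh16f2* and *Tf* were not matched. Loci, exons, lengths and GC content came from GENCODE M21, promoters from RefSeq. A planned comparison of protein sequences was not run. Alternatives used DESeq2 1.42.0, limma 3.58.1, other scalings, filters and thresholds, a replicate block and leaving out each mouse. Added after seeing the data were a GC content and length offset (lowess, span 0.3) and fits with a term for, or within, the sign of the library's length trend. All tools were tested on simulated data.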

Additional observations from a re-analysis of the deposited data

Results flagged for a closer look

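For each of 58 named genes, the highest and the lowest mouse of each group were compared with the rest of that group, in 116 groups. In 9 of them 1 mouse stood apart by Dixon's criterion, where chance gives about 1 in 20. Among the 7 retinoid genes, *Cyp26a1* was 20.98 CPM in INT-767 mouse 2 and between 5.61 and 7.31 CPM in the 3 other treated mice. *Dhrs3* was 68.7 CPM in INT-767 mouse 4 and between 91.5 and 92.6 CPM in the others. In the wider retinoid lists, vehicle mouse 1 was lowest for *Pnpla2*, an adipose triglyceride lipase (48.1 CPM, others 87.1 to 116), and highest for *Dhrs9* (13.7 CPM, others 1.87 to 5.19). *Tgm2* was highest in vehicle mouse 3 (407 CPM, others 147 to 207). Of the markers, *Cd5l*, a macrophage gene, was highest in INT-767 mouse 4 (404 CPM, others 136 to 173), and *Cd79a*, a B cell gene, in vehicle mouse 6 (2.43 CPM, others 0.758 to 1.25). Of the genes most like one of the 7, *Dlst* was highest in INT-767 mouse 2 (215 CPM, others 187 to 191) and *Hmgn5* in vehicle mouse 1 (57.0 CPM, others 33.6 to 43.1).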

How the results depend on the processing

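The rises of *Rbp4*, *Rdh10* and *Cyp26a1* kept their direction in all 25 alternatives in which the gene was tested, 24 for *Cyp26a1*, which could not be tested with at least 10 counts in every mouse. With library size only, 331 genes were called higher and 1026 lower, and of the 7 genes only 1, *Rdh10* (adjusted p of *Rbp4* 0.0509, of *Cyp26a1* 0.0666). The share of higher calls fell from 51.9% to 24.4%, and to 36.5% with upper-quartile factors. The median log2 fold change of all genes moved from −0.01 to −0.22 with library size only, and relative to it *Rbp4*, *Rdh10* and *Cyp26a1* stood at 0.70, 0.85 and 1.64. *Cyp26a1* also lost its call with upper-quartile factors (0.0521), no filter (0.0616) and limma-voom (0.0608). DESeq2 called 2811 genes, 1443 higher and 1368 lower, and limma-voom with sample weights 2808, 1626 higher and 1182 lower. At an adjusted p of 0.01, 245 genes were called, 158 higher and 87 lower, and of the 7 only 1, *Rdh10*. The causes were not tested.

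The replicate numbers gave no sign of pairing the mice. The correlations of same-numbered mice were −0.69, 0.215, 0.148 and −0.48, and 0 of 4 treated mice correlated best with its own number. These correlations also carry the library trends on length and GC content, so they cannot settle whether mice were paired. The replicate block fits each replicate number separately, which leaves few mice to estimate the spread. With the replicate block edgeR called 0 genes higher or lower, 0 in all and 0 of the 7, with 1347 genes at an unadjusted p under 0.05 (4573 without it). The offset for GC content and length called 1884 genes, 1073 higher and 811 lower, with 3 of the 7, and with the replicate block 0, with 0 of the 7 called and 1681 genes at an unadjusted p under 0.05. A term for the library's length trend gave 4038 calls, 2039 higher and 1999 lower, with 3 of the 7. The 4 libraries of negative trend alone gave 224 calls, 130 higher and 94 lower, with 0 of the 7, and the 7 of positive trend alone 1735, 856 higher and 879 lower, with 2 of the 7, *Rbp4* and *Rdh10*. Both sets hold fewer mice.

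Leaving out 1 mouse gave between 274 and 3276 calls (164 to 1906 higher, 110 to 1370 lower), between 1 and 3 of the 7, and between 2 and 3 of the 7 by the exact test at an unadjusted p under 0.05 (3 with all mice). With all mice, 4573 of the 13880 genes tested had an unadjusted edgeR p under 0.05, 2414 of them higher. The share of all genes under this threshold by the exact test is not given here. Adjusted over all genes with all mice, the smallest exact p is 0.0807, so that 0 of the 7 pass. Calls numbered 3276 when vehicle mouse 1 was left out, between 573 and 812 for vehicle mice 3 to 6, and 274 for INT-767 mouse 2. The exact p of *Cyp26a1* was 0.0667 without INT-767 mouse 2 or 3.

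Only genes that were not called reversed. With library size only, where the median of all genes also fell, the log2 fold change was −0.15 for *Dhrs3*, −0.034 for *Aldh1a7*, −0.12 for *Adh1* and −0.15 for *Lrat*. With upper-quartile factors (median of all genes −0.09, relative to which *Dhrs3* stood at 0.08) it was −0.014 for *Dhrs3* and −0.033 for *Lrat*, and with at least 10 counts in every mouse (median −0.02, *Dhrs3* at 0.012 relative to it) −0.0083 and −0.020. With the replicate block it was −0.036 for *Adh1*, 0.19 for *Cyp26b1*, 0.035 for *Cd79a* and 0.013 for *Gm15344*. With sample weights it was 0.056 for *Dnajc2* and 0.13 for *Gm15344*. With the offset it was 0.28 for *Cyp26b1*, −0.025 for *Lrat*, 0.079 for *Dlst* and −0.047 for *Nat2*, and with the offset and the replicate block −0.016 for *Aldh1a7*, −0.090 for *Adh1*, 0.43 for *Cyp26b1*, 0.012 for *Dlst* and −0.067 for *Nat2*. With the length-trend term it was 0.10 for *Cyp26b1*. In the libraries of negative trend it was −0.15 for *Aldh1a7*, 0.44 for *Cyp26b1*, 0.13 for *Rara*, 0.13 for *Cd5l*, 0.47 for *Cd79a* and 0.016 for *Dlst*, and in those of positive trend 0.20 for *Dnajc2*. Leaving out 1 mouse reversed *Aldh1a1* (−0.16 to 0.093), *Adh1* (−0.075 to 0.28), *Cyp26b1* (−0.17 to 0.17), *Lrat* (−0.055 to 0.13), *Cd5l* (−0.54 to 0.14), *Cd79a* (−0.35 to 0.11), *Dnajc2* (−0.16 to 0.055) and *Gm15344* (−0.34 to 0.040).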

Other observations

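Transcripts of several retinoid genes were at or near the limit of these libraries. *Crabp1*, *Crabp2*, *Sdr16c5* and *Sdr16c6* had 0 counts in all 11 mice. *Stra6*, the RBP4 receptor of other tissues, had 2 counts in all, and *Cyp26c1* had 20.

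After the group means were subtracted, the genes whose log2 CPM ran closely with each of the 7 over the 11 mice were *Dlst* for *Rbp4* (next to the highest, Pearson's r 0.92) and, as the highest pair for each of the others, *Trim28* and *Sgsh* for *Dhrs3* (0.99 and 0.98), *Aste1* and *Cutc* for *Rdh10* (0.97 and 0.97), *Zmym2* and *Mapk8* for *Rdh16* (0.99 and 0.98), *Nat2* and *Gm10762* for *Aldh1a1* (0.98 and 0.97), *Dnajc2* and *Hmgn5* for *Aldh1a7* (0.93 and 0.92), and *Igtp* and *Gm15344* for *Cyp26a1* (0.91 and 0.88). These are among the 2 highest of 13880 genes for each and share their libraries, so they are descriptions without a test. Among the 7 genes, *Rdh16* and *Aldh1a1* ran together (0.92), as did *Rdh10* and *Aldh1a1* (0.88), while *Dhrs3* ran against *Rdh16* (−0.85). *Rdh16*, *Aldh1a1* and *Rdh10* were highest within their groups in the 4 libraries with a negative trend on transcript length, and *Dhrs3* was lowest within its groups in 3 of those 4 (vehicle mice 1 and 7 and INT-767 mouse 4). The part of that trend in these correlations was not tested.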
